A study of Mus musculus with 16 samples.

Results

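The COPII coat genes are the 10 mouse genes Sar1a, Sar1b, Sec23a, Sec23b, Sec24a, Sec24b, Sec24c, Sec24d, Sec13 and Sec31a, which encode the GTPases and coat subunits that form transport vesicles at endoplasmic reticulum (ER) exit sites. They were chosen by name from the 55404 genes of the expression table. All 10 were among the 23244 genes that passed the filter on low values and were tested. RNA was taken from the whole brains of 16 male mice aged 5 months, 8 per genotype, on the C57BL/6J background and sequenced as 1 library each. Tecpr2 ki/ki mice are homozygous for a frameshift knock-in allele, L1152Yfs, made by CRISPR/Cas9 in zygotes, and wt/wt mice are their wild-type littermates without the edit. Neither group was treated, and the allele is constitutive. In bulk RNA of a whole brain, fewer cells of a type and less RNA per cell cannot be told apart.

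COPII vesicles carry newly made proteins out of the ER towards the Golgi. The small GTPase SAR1 binds the ER membrane in its GTP form and recruits the inner coat, a dimer of SEC23, which stimulates the GTPase, and SEC24, which binds cargo. The outer cage of SEC13 and SEC31 then bends the membrane into a vesicle. TECPR2 is a protein that binds SEC24D and has been placed at ER exit sites, so the comparison of genotypes asks whether the mRNAs of the coat differ in brains with the frameshift allele.

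The promoters of 2 members, Sec24d and Sec23a, hold the letters TGACGTG, the core of the unfolded protein response element (UPRE), a motif bound by XBP1 and ATF6 in the response to ER stress. They are shown because no RefSeq promoter window searched for another member held these letters. Sec24d and Sec23a also have the smallest p-values between genotypes below. Sec24d was higher and Sec23a lower in Tecpr2 ki/ki mice, and neither passed after adjustment over all genes. A link between the motif and these differences was not tested. RefSeq promoter windows, from 250 bases before to 50 bases after the start of transcription in GRCm38.p6, were found for 10 of 10 members, and both strands were searched. The motif is in capitals, with up to 30 bases in all, 5′ to 3′ on the strand of the gene.
Sec24d, chr3:123267459-123267488, plus strand: gcccgggcgccTGACGTGgcactagcaacc
Sec23a, chr12:59011993-59012022, minus strand: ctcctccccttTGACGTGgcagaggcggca
The motif began at base -26 from the RefSeq start of transcription in Sec24d and at base 7 in Sec23a. GENCODE places the start of Sec24d 41 bases further upstream, at 123267455. By that start the motif, at 123267470 to 123267476, lies inside the gene. Of 32851 windows of all genes, 2.01% held it. CCACG, the short second part of the ER stress element, lies on the opposite strand in both genes and overlaps the end of the motif. CCACG was in the windows of 7 of 10 members and in 32.8% of all windows. The whole ER stress element was in 0.119% and the cAMP response element, TGACGTCA, in 1.79% of windows, and neither was found in a window of a member. A match is a description of these letters, not evidence of binding.

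In GRCm38, the members lie on 8 chromosomes, and 1 pair are close neighbours. Sec24a (chromosome 11, 51692264 to 51763634, minus strand) and Sar1b (chromosome 11, 51763687 to 51791925, plus strand) are divided by 52 bases between their GENCODE starts and are transcribed away from each other. The RefSeq start of Sec24a, at 51756834, lies 6800 bases inside the gene, so that the window searched for motifs in Sec24a is not the region between the genes. The RefSeq start of Sec24b lies 646 bases inside its GENCODE gene, so that the region at its GENCODE start was not searched either. Sec24d and Sec24b are both on chromosome 3, from 123267455 to 123365641 and from 129982759 to 130061553. Sec23a (58958383 to 59012017) shares chromosome 12 with the edited gene Tecpr2 (110889264 to 110972394). Exons on the opposite strand overlap Sec24c (6230400D17Rik) and Sec23a (Gm17529), and the libraries were stranded. At most 3.82% of the 31-base words of a member's exons occur in other genes, in Sec13, mainly in 4933417G07Rik (3.07%).

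The targeted gene was as labelled in every library. Tecpr2 had a median value of 298.5 (274 to 320) in Tecpr2 ki/ki mice against 968.5 (928 to 1002) in wt/wt mice, without overlap, which is a log2 fold change of -1.68 (limma, Benjamini-Hochberg adjusted p = 2.16e-47). Values are the normalized values per gene that the authors deposited, rounded to whole numbers, and log2 fold changes are of value + 1, Tecpr2 ki/ki minus wt/wt. Totals per mouse were 11964284 to 12252324, and the depth that the values imply was 9.23 to 14.3 megareads on genes in Tecpr2 ki/ki and 10.1 to 15.4 megareads in wt/wt mice. Markers of neurons, astrocytes, oligodendrocytes, microglia, endothelium and choroid plexus all passed the filter, whereas 5 of 6 liver and muscle markers did not.

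Each of the COPII genes was detected in every mouse, and the paralogs of a family were present at unequal levels. To compare levels between genes, values were divided by the length of the longest coding transcript in kilobases (kb). On this scale Sar1a was highest with a mean of 323 per kb over 16 mice (lowest 300.04, highest 360.1). Sec23a followed with 279, Sec31a with 275, Sar1b with 252 and Sec13 with 233 per kb, and each of these overlapped its neighbour in the order across mice. Sec24c was at 192, Sec24b at 167, Sec23b at 142 and Sec24a at 84.7 per kb. Sec24d was lowest with 46.6 per kb (36.9 to 54.3), and every mouse was below every mouse of Sec24a (78.4 to 91.2). The order depends on the length used. Divided by the union of all exons, Sar1b (241), Sec23a (237) and Sar1a (226) led and overlapped, Sec13 came to 99.0 per kb after Sec31a, Sec24b and Sec24c, and Sec23b (62.7) overlapped Sec24a (52.2). Sec24d (28.8 per kb) was again lowest, without overlap.

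**Figure D1:**
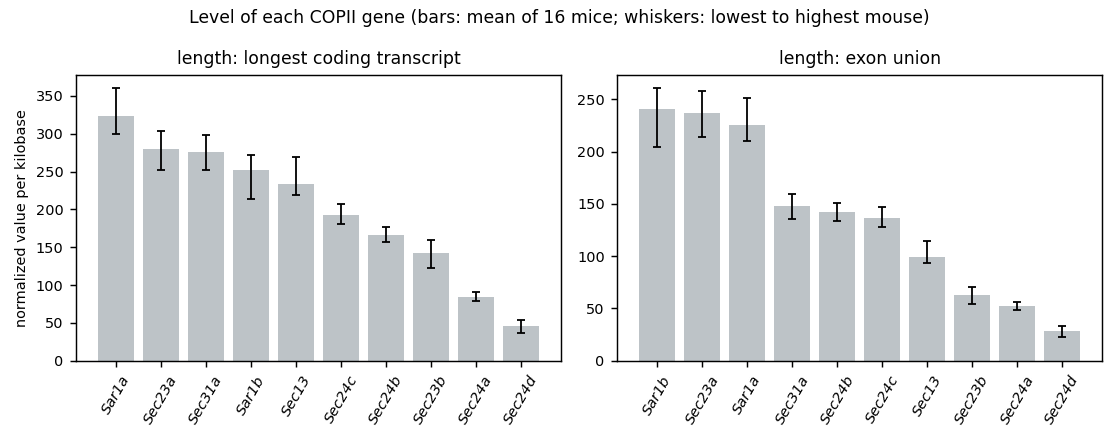
Mean normalized value per kilobase of the 10 COPII genes over 16 mice (bars) with the lowest and highest mouse (whiskers), divided by the longest coding transcript (left) or by the union of exons (right). Sec24d is lowest on both scales, at 46.6 and 28.8 per kb, and the order of the highest 3 genes differs between them.

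Among the cargo-binding SEC24 paralogs, Sec24c and Sec24b made up most of the per-kb sum. By the longest coding transcript, Sec24c accounted for 38.5% ± 1.22 (SD, n = 8) in Tecpr2 ki/ki and 39.9% ± 1.30 in wt/wt mice, and Sec24b for 34.1% ± 0.990 and 33.9% ± 0.761. Sec24a accounted for 17.5% ± 0.580 and 17.1% ± 1.13. Sec24d, the paralog that binds TECPR2, made up 9.996% ± 0.530 in Tecpr2 ki/ki and 9.03% ± 0.867 in wt/wt mice, with ranges of 9.37 to 10.9% and 7.84 to 10.5%. Sec23a held 65.9% of the SEC23 pair in Tecpr2 ki/ki and 66.6% in wt/wt mice, and Sar1a 56.5% and 56.0% of the SAR1 pair. By the exon union, Sar1b rather than Sar1a was the larger of the SAR1 pair in the mean, with 51.4% in Tecpr2 ki/ki and 51.8% in wt/wt mice. On that scale Sec24b (39.6% and 39.4%) was also ahead of Sec24c (37.3% and 38.6%), Sec23a held 78.8% and 79.3% of its pair, and Sec24d made up 8.42% and 7.60% of the SEC24 sum.

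None of the 10 COPII genes differed between genotypes at an adjusted p under 0.1 (limma, Benjamini-Hochberg over all tested genes). Over all genes, 31 of 23244 passed, which is 0.133%. At an unadjusted p under 0.05 there were 2 of 10 members, against 6.08% of all tested genes: Sec24d was higher (3.07% of all genes were called in this direction) and Sec23a lower (3.01%). With the knock-in, 4 members were higher and 6 lower, against 11505 higher and 11739 lower of all tested genes. The median log2 fold change of the members was -0.03, against -0.00098 over all genes and -0.0052 over genes with a mean value of at least 100. The genotypes overlapped in each of the 10 genes, and over all genes 20 of 23244, or 0.086%, were without overlap, so that 0 of 10 is near the background.

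**Figure D2:**
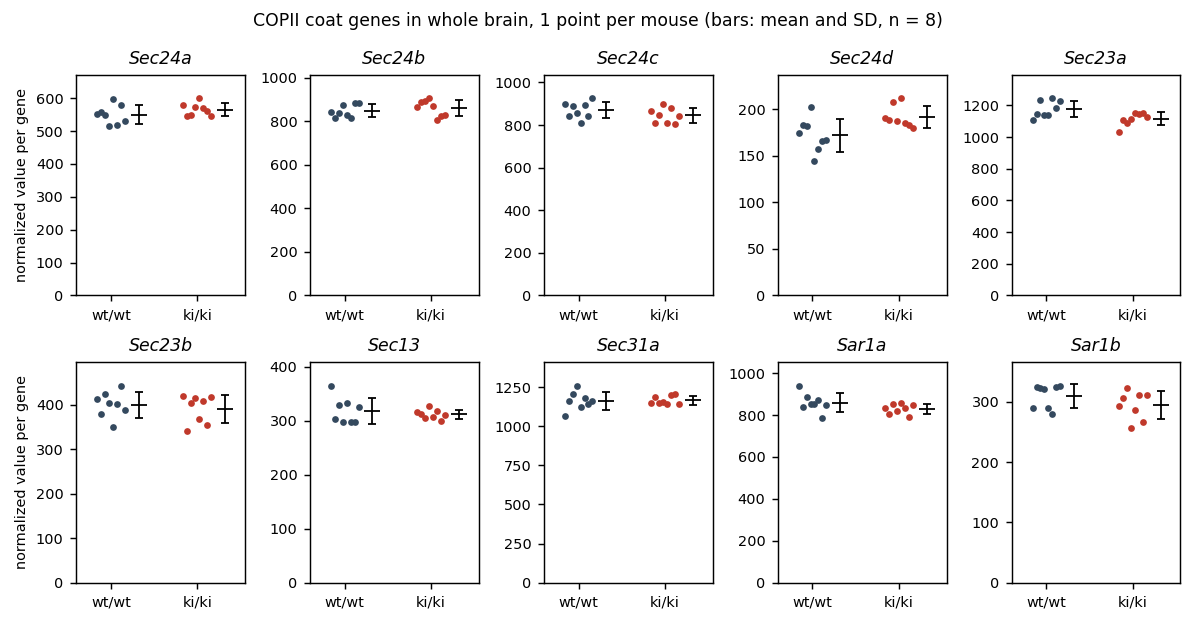
Normalized value of each COPII gene in whole brain, 1 point per mouse, with the mean and SD (n = 8 per genotype) beside the points and every axis starting at 0. The genotypes overlap in each panel, with Sec24d higher (medians 188.5 and 171) and Sec23a lower (medians 1121.5 and 1165.5) in Tecpr2 ki/ki mice.

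Sec24d values were 180 at the lowest, 188.5 at the median and 212 at the highest in Tecpr2 ki/ki mice. In wt/wt mice they were 144, 171 and 203. All 8 Tecpr2 ki/ki mice were above the wt/wt median, 2 of them above every wt/wt mouse, and 5 wt/wt mice were below every Tecpr2 ki/ki mouse. The group means of Sec24d, with their SD over 8 mice, were 192.0 ± 11.7 for Tecpr2 ki/ki and 172 ± 17.97 for wt/wt. The log2 fold change, 0.16 with a standard error of 0.0624, corresponds to 11.8% more, with a 95% interval of 2.58 to 21.9%. The limma p of 0.0120, near the exact two-sided permutation p of 0.0177 over the mice, was 0.655 after Benjamini-Hochberg adjustment over all genes. Sec24d would have needed to be 19.4% higher, at its own spread, to reach the p of the last gene called. As the member with the lowest values, Sec24d was also the one with the largest counting error, a coefficient of variation of 7.38% from the number of reads alone. Without wt/wt mouse 5, the lowest, it was 9.11% higher (limma, Benjamini-Hochberg adjusted p = 0.839), and without wt/wt mouse 4, the highest of its group, 14.6% higher (adjusted p = 0.472).

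Sec23a, the more abundant of the GTPase-activating inner coat genes, was 1033 at the lowest, 1121.5 at the median and 1154 at the highest in Tecpr2 ki/ki mice. In wt/wt mice the values were 1110, 1165.5 and 1246. None of the 8 Tecpr2 ki/ki mice was above the wt/wt median, 3 were below every wt/wt mouse, and 4 wt/wt mice were above every Tecpr2 ki/ki mouse. Means of Sec23a were 1116 ± 40.4 against 1178 ± 51.7 (SD, n = 8 each). The log2 fold change of -0.08, with a standard error of 0.0287, is a difference of -5.17% (95% interval -8.87 to -1.33%). Sec23a had a limma p of 0.00963 (exact two-sided permutation p = 0.0207), which after Benjamini-Hochberg adjustment was 0.632. Sec23b, its paralog, ranged from 341 to 419 (median 406) in Tecpr2 ki/ki and from 350 to 443 (median 402) in wt/wt mice. The Sec23b log2 fold change was -0.03 (95% interval -0.13 to 0.06, limma with Benjamini-Hochberg adjusted p = 0.958).

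None of the other SEC24 genes passed either threshold, and Sec24a and Sec24b were higher and Sec24c lower in the mean. Sec24a was 545, 565.5 and 600 (lowest, median and highest) in Tecpr2 ki/ki and 516, 550.5 and 598 in wt/wt mice, for a log2 fold change of 0.04 (95% interval -0.03 to 0.11). Sec24b was 806, 866 and 906 against 817, 839.5 and 886, a log2 fold change of 0.02 (-0.04 to 0.08). Sec24c was 804, 843 and 901 against 808, 873 and 926, a log2 fold change of -0.04 (-0.10 to 0.02). Exact two-sided permutation p-values were 0.226 for Sec24a, 0.517 for Sec24b and 0.206 for Sec24c.

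Neither gene of the outer cage passed a threshold. Sec31a, the rod of the cage, was 1139, 1153.5 and 1208 in Tecpr2 ki/ki and 1068, 1163 and 1260 in wt/wt mice. The Sec31a log2 fold change of 0.0050 is a difference of 0.349%, with a 95% interval of -3.50 to 4.35% (limma, Benjamini-Hochberg adjusted p = 0.991). Sec13, a propeller protein that also belongs to the nuclear pore, was 300, 311 and 328 against 297, 314.5 and 365, a log2 fold change of -0.03 (95% interval -0.12 to 0.07, limma, Benjamini-Hochberg adjusted p = 0.970). The 8 Tecpr2 ki/ki mice were all inside the wt/wt range for Sec13.

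Both SAR1 genes were lower in the mean in Tecpr2 ki/ki mice without passing either threshold. Sar1a was 789, 832.5 and 857 in Tecpr2 ki/ki and 784, 853 and 941 in wt/wt mice, for a log2 fold change of -0.05 (95% interval -0.11 to 0.01, limma, Benjamini-Hochberg adjusted p = 0.890). Without wt/wt mouse 7, the lowest of its group, Sar1a came under the unadjusted threshold as well (limma, Benjamini-Hochberg adjusted p = 0.746). Sar1b, the isoform needed for chylomicron secretion in the gut, was 257, 300.0 and 323 against 280, 322.5 and 327, a log2 fold change of -0.08 (95% interval -0.18 to 0.02, limma, Benjamini-Hochberg adjusted p = 0.897). For Sar1b, 2 Tecpr2 ki/ki mice were below every wt/wt mouse.

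The design set close limits on the size of a difference in the whole-brain average of most members. A difference confined to a part of the brain would be diluted in these values and was not tested. In 8 of 10 genes, all but Sec24d and Sar1b, the 95% interval of the genotype difference lay within 10% of the wt/wt level in either direction. The interval of Sar1b reached -11.5%. At the spread of each gene, an estimated fall of 7.72% (Sec31a) to 16.2% (Sec24d) was needed for a call at an adjusted p under 0.1. A true difference of that size would often give a smaller estimate and would then not be called. The standard deviation between mice was 0.989 to 1.54 times what counting reads alone gives (median 1.24). Coefficients of variation were 2.36 to 8.00% within Tecpr2 ki/ki and 3.43 to 10.4% within wt/wt mice.

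**Figure D3:**
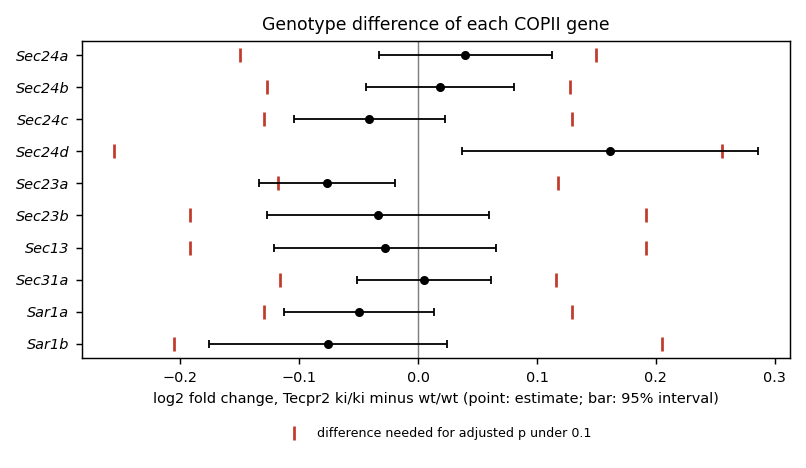
Log2 fold change of each COPII gene, Tecpr2 ki/ki minus wt/wt, with its 95% interval from limma, and the difference that gene would have needed for an adjusted p under 0.1 (red ticks). Sec24d at 0.16 and Sec23a at -0.08 are the intervals that leave out 0, and no estimate reaches its tick.

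Ratios of partners or paralogs within a library do not depend on how a library was scaled. The log2 ratio of Sec24d to Sec24c was -2.25 at the lowest, -2.15 at the median and -1.93 at the highest in Tecpr2 ki/ki mice, and -2.50, -2.35 and -2.07 in wt/wt mice. All 8 Tecpr2 ki/ki mice were above the wt/wt median and 2 were above every wt/wt mouse. The difference was 0.20 (standard error 0.0667, exact two-sided permutation test p = 0.0106, Benjamini-Hochberg adjusted p = 0.0528 over 5 ratios). This is over the 0.05 used for ratios. The 0.1 used above for single genes goes with an adjustment over all tested genes and is not a like threshold. The ratio also holds the same Sec24d values as the single-gene test. Leaving out 1 mouse at a time, the adjusted p of the exact permutation test was under 0.05 in 4 of 16 cases and under 0.1 in 11. It was under 0.05 without Tecpr2 ki/ki mouse 4 (adjusted p = 0.0458 in the exact permutation test) or 6 (0.0490), and without wt/wt mouse 2 (0.0404) or 4 (0.00699). It was 0.103 to 0.107 without wt/wt mouse 5, 6 or 8 and without Tecpr2 ki/ki mouse 3 or 5. With the replicate number as a block it was 0.156 (exact paired permutation test). Differences were -0.02 for Sec24b to Sec24a, 0.04 for Sec23b to Sec23a, -0.03 for Sar1b to Sar1a and 0.03 for Sec31a to Sec13, with exact permutation p-values of 0.513 to 0.677.

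**Figure D4:**
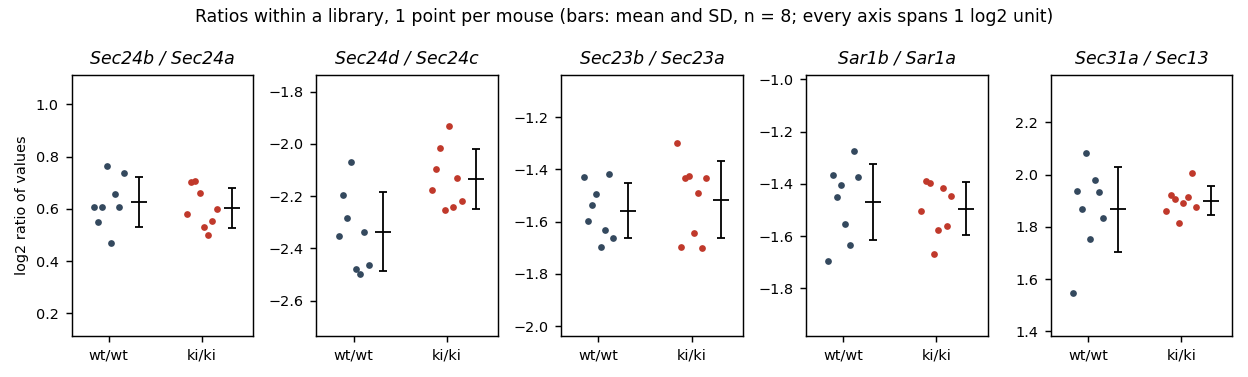
Log2 ratio of 5 pairs of COPII genes within each library, 1 point per mouse, with the mean and SD (n = 8 per genotype). Each axis spans 1 log2 unit. The ratio of Sec24d to Sec24c is shifted up by 0.20 in Tecpr2 ki/ki mice, with overlap, and the other 4 pairs differ by at most 0.04.

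Members were also compared from mouse to mouse within a genotype. Of 45 pairs of members, 21 had a positive and 24 a negative Pearson r over 16 mice after the genotype means were subtracted, with a median of -0.03. The highest was that of Sec24c and Sec23b (r = 0.61, permutation p = 0.0160; Spearman rho = 0.55, permutation p = 0.0357). It was 0.47 without the 2 mice farthest from the median of the gene named first. Its permutation p after Benjamini-Hochberg adjustment over 45 pairs was 0.720, the smallest of all pairs. In each pair below, the 2 farthest mice are also those of the gene named first, and mice far out only in the other gene were kept. Sec13 and Sar1a had r = 0.60 (permutation p = 0.0488) with rho = 0.30, and r = 0.35 without the 2 farthest mice. The lowest r was that of the cage partners Sec13 and Sec31a (r = -0.59, permutation p = 0.0589; rho = -0.31, permutation p = 0.296), which was -0.05 without the 2 farthest mice. Sec24a and Sec31a had r = -0.48 (permutation p = 0.108) and rho = -0.57 (permutation p = 0.0346, adjusted p = 0.803). Sec24a and Sar1b, with 52 bases between their GENCODE starts, had r = -0.21 (permutation p = 0.415; rho = -0.16, permutation p = 0.551) and r = -0.05 without the 2 farthest mice. The genes whose deviations were most like those of Sec24d, among 11172 genes with a mean value of at least 100, were Gm4335 (r = 0.85), Zfp804a (0.85) and Fam168a (0.83). These 3 values are the highest of many and come from the same 16 libraries, so that they are a description. The SD of Sec24d between mice was 0.123 in log2, and counting reads alone gives 0.107. For Sec13 these were 0.0804 and 0.0813. The part of counting error in the correlations of these genes was not tested.

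Genes that act with the coat were counted in the same way. Of 124 listed genes of ER exit, cargo sorting, vesicle fusion, the COPI coat and ER stress, 122 were tested and 3 had an unadjusted p under 0.05, 2.46% against 6.08% of all genes. The difference between these shares was not tested, and the count was 2 to 7 with each mouse left out in turn (7 without wt/wt mouse 2) and 5 with a replicate block. One of the 3 was Tecpr2 itself. Without Tecpr2, 50 were higher and 71 lower, the median log2 fold change was -0.0069, and none had an adjusted p under 0.1 (limma, Benjamini-Hochberg).

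Genes listed with the exit site organizers, among them the scaffold Sec16a and the cargo adaptor Mia3, were not all organizers themselves. Their median log2 fold change was -0.01 over 19 tested genes, and none but Tecpr2 was called. Trim32, with the highest mean value of that list, was 1549, 1594 and 1756 (lowest, median and highest) in Tecpr2 ki/ki and 1517, 1639 and 1739 in wt/wt mice. Of the 28 tested cargo receptors, Tmed1, a p24 family member, was 34, 44.5 and 53 in Tecpr2 ki/ki and 46, 52 and 62 in wt/wt mice. Tmed1 had an unadjusted p under 0.05 and a log2 fold change of -0.26 (95% interval -0.48 to -0.03, limma with Benjamini-Hochberg adjusted p = 0.762). Tmed10, of the same family and with the highest mean value of the receptors, was at -0.04 (95% interval -0.09 to 0.02).

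None of the 26 fusion and tethering genes had an unadjusted p under 0.05, and Rab1a, the GTPase that recruits tethers to COPII vesicles, was 1520, 1596.5 and 1608 against 1512, 1591 and 1669. Of 22 genes of the COPI coat, which returns proteins from the Golgi to the ER, and of its ER tether, Zw10, a subunit of that tether, was 189, 204 and 223 in Tecpr2 ki/ki and 151, 187 and 208 in wt/wt mice. Zw10 also had an unadjusted p under 0.05, with a log2 fold change of 0.13 (95% interval 0.0088 to 0.25, limma with Benjamini-Hochberg adjusted p = 0.807). Arf1, the GTPase of COPI and the gene with the highest mean value, was at -0.04 (95% interval -0.08 to 0.0040).

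Of 27 ER stress targets, chaperones, folding enzymes and factors of ER-associated degradation, 15 were higher and 12 lower, with a median log2 fold change of 0.0071. None had an unadjusted p under 0.05. Canx, a lectin chaperone with the highest mean value of the list, was 3928, 4042 and 4205 in Tecpr2 ki/ki and 3889, 4051 and 4311 in wt/wt mice, for a log2 fold change of -0.0052 (95% interval -0.04 to 0.03). These genes are described because the motif shown above for Sec24d and Sec23a belongs to this response.

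**Figure D5:**
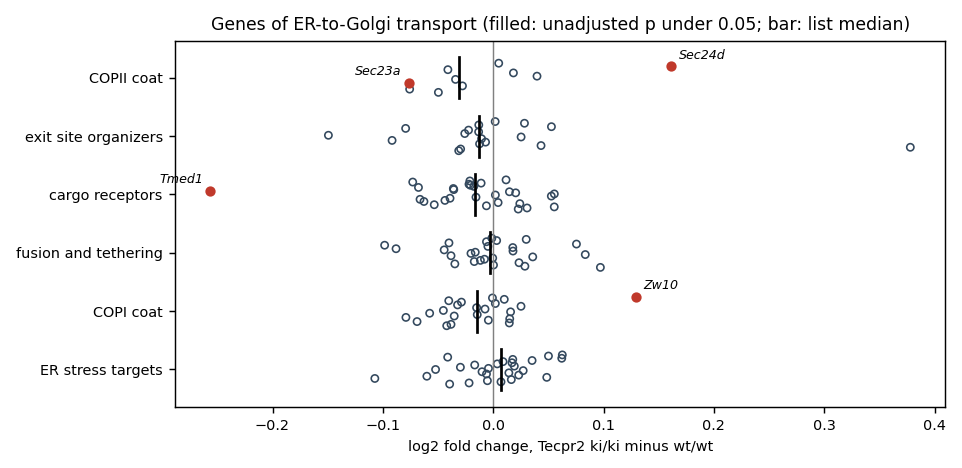
Log2 fold change, Tecpr2 ki/ki minus wt/wt, of the tested genes of 6 lists (points), with the list median (bar) and genes at an unadjusted p under 0.05 filled and named. Tecpr2, at -1.68, is left out. List medians lie between -0.03 (COPII coat) and 0.0071 (ER stress targets).

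Glial markers differed between the same libraries. All 7 microglial markers were higher in Tecpr2 ki/ki mice, with summed values of 2322 to 2520 against 2046 to 2296 in wt/wt mice, and C1qa (log2 fold change 0.30) and C1qb (0.42) had an adjusted p under 0.1 (limma, Benjamini-Hochberg). Of the astrocyte markers, 6 of 7 were higher (sums 58031 to 60315 against 54436 to 57944), and Gfap (0.58), Aqp4 (0.14) and Slc1a2 (0.06) passed the same threshold. Slc1a2, with means of 45610 in Tecpr2 ki/ki and 43648 in wt/wt mice, made up most of the astrocyte sums. Of the neuronal markers, 7 of 8 were lower (sums 60645 to 63168 against 60834 to 65280), and Gad1 (-0.09, limma with Benjamini-Hochberg adjusted p = 0.0681) passed. Oligodendrocyte sums were 45247 to 51491 against 45495 to 51057. At an unadjusted p under 0.05 there were 5 of 7 microglial, 3 of 7 astrocyte, 3 of 8 neuronal and 2 of 5 choroid plexus markers. No oligodendrocyte, endothelial or blood marker was under it, and the share of all tested genes was 6.08%. Of the choroid plexus markers, 4 of 5 were lower (sums 4197 to 4824 against 4692 to 5329), and none passed after adjustment. Ttr, with means of 4086 in Tecpr2 ki/ki and 4364 in wt/wt mice, made up most of the choroid plexus sums. The part of these shifts in the values of Sec24d, Sec23a or another COPII gene was not tested.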

How the data were processed

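Total RNA of whole brain (1 stranded, ribosomal RNA-depleted library per mouse, 8 mice per genotype) was sequenced by the authors. Per the submitters' processing notes, reads were trimmed with Trim Galore 0.6.10 and cutadapt 3.4 and aligned with STAR 2.7.10b, per the methods to GRCm39. Reads per gene were counted with summarizeOverlaps, and the authors tested genes with DESeq2 1.40.2. The deposited values are a score: linear normalized values per gene, rounded to whole numbers, whose normalization is not given in the sources used here. In 16 of 16 cases the single tables equal the series table, and 0 columns were left without a mouse. Groups were taken from the sample titles. Raw counts were not used here, so no count model was run.

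The filter kept 23244 genes with a sum of values above 16 and a value above 5 in 4 or more mice of either genotype. The genotypes were compared with limma 3.58.1 in R 4.3.3 on log2(value + 1), with a variance trend, robust estimation and Benjamini-Hochberg adjustment over all tested genes. Adding 1 makes the fold changes of low genes slightly too small. Ratios were tested by permutation, exact and two-sided, using all 12870 ways of splitting the mice, and correlations with 100000 resamples, in Python 3.11.15 with scipy 1.17.1. Because rounding keeps the steps that division leaves among low values, each library's factor, 0.7714 to 1.2784, and with it its depth could be estimated. On simulated data of 22897 genes, limma recovered 200 of 200 changed genes at an adjusted p under 0.1. The planted changes were all larger than that of any COPII gene and lay only in genes with higher mean values than Sec24d. Their full recovery therefore says little about the members. It called 20 of 22697 unchanged genes at the same threshold. Recovery of differences as small as those of the COPII genes was not tested.

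Symbols (52016 genes) and positions are from GENCODE for GRCm38, an earlier build than the authors' GRCm39, and promoters from RefSeq. A second identifier with the symbol Ddit3 was not used. The members and lists were chosen with earlier results of these data known. Named were all members, Tecpr2, from each list of related genes those with an unadjusted p under 0.05 and the one with the highest mean value, markers at an adjusted p under 0.1, and the 3 genes most correlated with Sec24d. Alternatives changed the pseudocount, filter, scaling, variance estimate, replicate block and mice included.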

Additional observations from a re-analysis of the deposited data

How the results depend on the processing

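Of the COPII genes, 0 passed the adjusted and 2 the unadjusted threshold, Sec24d and Sec23a, under each of 9 alternatives (pseudocounts of 0.1 and 5, no filter, 3 rescalings, no robust variance estimate, a replicate block, and, added after seeing the data, the first residual component, with 12.8% of the residual variance, as a covariate), where the log2 fold change of Sec24d was 0.16 to 0.17 and that of Sec23a -0.08 to -0.07. Over all genes, 20 were called without a filter and 63 with the residual component. Of the listed pathway genes, 5 had an unadjusted p under 0.05 with the replicate block and 5 with the residual component. The sample titles do not say whether same-numbered mice were paired. The correlation of their deviations was -0.0501 to 0.152, with 2 of 8 closest to their own number, which cannot decide it. The replicate block gave 46 genes in all and a paired exact permutation p of 0.0312 (adjusted 0.156) for the ratio of Sec24d to Sec24c. With each mouse left out in turn, 0 COPII genes passed the adjusted and 2 to 3 the unadjusted threshold, 25 to 40 genes passed in all, and 2 to 7 pathway genes the unadjusted threshold (7 without wt/wt mouse 2, 6 without Tecpr2 ki/ki mouse 3 or 8, 5 without wt/wt mouse 7, 2 without wt/wt mouse 8 and without Tecpr2 ki/ki mouse 5 or 6). Log2 fold changes were then 0.13 to 0.20 for Sec24d, -0.09 to -0.06 for Sec23a, -1.69 to -1.66 for Tecpr2, -0.042 to 0.00068 for Sec13 and -0.012 to 0.022 for Sec31a, the last 2 changing sign. Ratios were -0.04 to -0.0015 for Sec24b to Sec24a, 0.17 to 0.24 for Sec24d to Sec24c (exact permutation, adjusted p = 0.00699 to 0.107), 0.01 to 0.07 for Sec23b to Sec23a, -0.058 to 0.0019 for Sar1b to Sar1a and -0.013 to 0.064 for Sec31a to Sec13. The cause of these shifts was not tested. At this depth, an estimated COPII difference smaller than the size given for its call would not have been called. A true difference of that size could also have been missed.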
